A study of Mus musculus with 8 samples.

Results

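The strongest Oct6 peaks are the 264 regions, of 7965 on chromosomes 1 to 19, X and Y, to which the authors' peak list gives a score of 20 or more. Oct6 is the POU domain transcription factor encoded by Pou3f1. The list comes from 1 ChIP library, made at day 4 with an antibody to Oct6, and 1 input library, both labelled as cells overexpressing Oct6. The peaks were thus chosen by their deposited score, which is given here as a description only. The RNA values come from 6 libraries of mouse embryonic stem cells grown as embryoid bodies, a control and an induced library at each of days 2, 4 and 6. In the induced libraries doxycycline switched on extra Oct6. The labels name the stem cell lines R1 and R1/E, kept on feeder cells before differentiation, without saying which line gave which library, and they do not say whether control cells received doxycycline. The time labels speak of embryoid bodies for the RNA and of neural differentiation for the ChIP, and a prefix in the RNA titles, fbs, is not explained. Neither the vector nor the promoter that drives the Oct6 transgene is given in the sources used here. Nothing was repeated within a day, so no difference between 2 libraries has a replicate check.

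POU factors bind DNA through a POU-specific domain and a POU homeodomain joined by a flexible linker. One protein can sit on the octamer ATGCAAAT, and 2 proteins can sit together on a palindrome built from ATGCAT-like sites. Oct6 is known from the epiblast, from neural progenitors and from the Schwann cells that myelinate nerves, and Oct4, encoded by Pou5f1 and central to pluripotent cells, reads the same octamer. The site types counted here were the exact octamer, the octamer with up to 1 mismatch, the octamer beside a SOX core, and a palindromic pair, which is ATGNAT followed on the same strand by ATNCAT, either directly or after 1 base. N stands for any base, and both strands were read. A pair can hold an octamer with 1 mismatch, because ATGCATAT differs from ATGCAAAT at 1 base. The pair with 1 base between its arms was added after the sequences were seen.

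The sequences shown here hold a pair and come next in score after the highest peak with a pair, which is not printed. Each is a whole peak on the plus strand of mm9, and the capitals mark pairs with 0 or 1 base between the arms and exact octamers. They were chosen after their values were seen. The first lies in an intron of Klf12, the second in an intron of Clip2 with 3 pairs in a row, the third in an intron of Gse1, the fourth in an intron of Cntnap5a, the fifth in an intron of Lemd1 and the sixth 354 bp inside 2310044H10Rik.
Klf12 peak, chr14:100343448-100343580, score 70.9: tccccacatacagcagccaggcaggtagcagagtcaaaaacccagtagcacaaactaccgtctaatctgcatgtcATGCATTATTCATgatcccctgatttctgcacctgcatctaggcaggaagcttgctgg
Clip2 peak, chr5:134997125-134997257, score 70.9: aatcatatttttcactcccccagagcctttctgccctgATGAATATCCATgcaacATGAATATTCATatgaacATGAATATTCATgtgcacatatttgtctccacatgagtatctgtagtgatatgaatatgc
Gse1 peak, chr8:123022848-123022980, score 62: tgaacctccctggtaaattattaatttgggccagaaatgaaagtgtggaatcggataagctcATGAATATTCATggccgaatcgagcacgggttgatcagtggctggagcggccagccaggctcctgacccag
Cntnap5a peak, chr1:117681442-117681574, score 59.5: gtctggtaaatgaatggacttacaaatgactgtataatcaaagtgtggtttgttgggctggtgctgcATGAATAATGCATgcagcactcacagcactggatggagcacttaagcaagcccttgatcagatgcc
Lemd1 peak, chr1:134118879-134119011, score 59.5: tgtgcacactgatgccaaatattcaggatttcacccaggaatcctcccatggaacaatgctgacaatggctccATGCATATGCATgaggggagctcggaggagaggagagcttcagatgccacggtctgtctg
2310044H10Rik peak, chr7:51751479-51751611, score 57.0: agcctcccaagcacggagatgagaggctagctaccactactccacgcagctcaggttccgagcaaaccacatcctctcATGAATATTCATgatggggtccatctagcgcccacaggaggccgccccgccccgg
In 5 of these 6 peaks the pair is single, and in Klf12 and Cntnap5a it carries 1 base between its arms. The unprinted peak, at a score of 79.7, lies 109285 bp upstream of the start of Fam38b. It holds 2 pairs, 1 with 0 bases and 1 with 1 base between the arms.

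Exact octamers were rarer, and the highest score of a peak with one was 30.4. The 3 octamer peaks of highest score are shown next, the first 2 at a score of 30.4 and the last at 29.1, and the first holds a pair as well. The first lies 47432 bp upstream of the start of Prr5, the second in an intron of Tbc1d22a and the last 233437 bp downstream of the start of Pcdh18, outside any gene.
Prr5 peak, chr15:84452552-84452684: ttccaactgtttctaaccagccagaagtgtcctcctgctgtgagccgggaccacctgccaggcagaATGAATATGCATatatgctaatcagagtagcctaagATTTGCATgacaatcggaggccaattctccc
Tbc1d22a peak, chr15:86159030-86159162: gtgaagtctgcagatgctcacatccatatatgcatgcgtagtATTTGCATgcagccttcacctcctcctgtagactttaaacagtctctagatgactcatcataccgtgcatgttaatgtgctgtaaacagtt
Pcdh18 peak, chr3:49327735-49327867: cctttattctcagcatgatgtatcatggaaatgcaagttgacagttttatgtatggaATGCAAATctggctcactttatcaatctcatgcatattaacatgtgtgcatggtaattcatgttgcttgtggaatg

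The 2 peaks of highest score in the whole list hold neither a pair nor an octamer, even with 1 mismatch, and are shown because they set the top of the score scale. One lies 91569 bp downstream of the start of Axin2 at a score of 145.6, the other 198072 bp downstream of that of Samd9l at 113.9.
Axin2 peak, chr11:108873166-108873298: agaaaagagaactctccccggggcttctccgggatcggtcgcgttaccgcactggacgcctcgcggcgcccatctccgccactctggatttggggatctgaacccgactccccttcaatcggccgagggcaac
Samd9l peak, chr6:3151433-3151565: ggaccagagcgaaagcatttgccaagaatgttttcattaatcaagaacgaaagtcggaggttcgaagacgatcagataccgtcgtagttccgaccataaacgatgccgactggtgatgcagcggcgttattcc
Both read as fragments of ribosomal RNA genes, from general knowledge of those sequences. No ribosomal RNA reference was searched, and the share of such peaks was not counted.

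The scores of the 264 peaks had a median of 22.8, against 11.4 for the remaining 7701. All scores of the list lay within 0.05 of a multiple of 1.266, so the threshold of 20 fell between 15 and 16 such steps. The 62 peaks just inside stood at 20.3 and the 91 just outside at 19. Were a step worth 1 read, which the sources used here do not state, 16 steps would carry an exact Poisson 95% interval of 9.15 to 26, so these neighbours are not separated by counting error. Among the peaks at the lowest score inside were ones 112 bp upstream of Sntb2 and 17934 bp downstream of the Trim67 start, and among those outside were ones 9730 bp upstream of Klf7 and 53 bp upstream of Ube2f.

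Strong peaks lay near gene starts less often than the remaining peaks. Of the 264, 30 (11.4%, 95% Wilson interval 8.08 to 15.8) had their centre within 1 kb of the start of a protein-coding gene, against 18.6% (17.7 to 19.5) of the remaining peaks. The share of the assembly within 1 kb of a start was not counted, so neither value is set against the genome. Introns held 95 (36.0%, 30.4 to 41.9, against 32.9%), exons 2 (0.758%, against 2.61%), intergenic sequence within 100 kb of a start 70 (26.5%, 21.6 to 32.2, against 18.8%) and more distant sequence 67 (25.4%, 20.5 to 31.0, against 27.2%). These intervals cover counting error only, over peaks of 1 list. The share within 10 kb of a start was 20.8% (16.4 to 26.1) for strong and 29.7% (28.7 to 30.7) for remaining peaks, while the share within 100 kb was 59.8% and 60.7%. The distance to the nearest start ran from 7 to 1630603 bp with a median of 62341 bp, and 121 of the 264 peaks lay upstream of that start.

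Strong peaks with a pair differed somewhat in position from those without. Of the 91 strong peaks with a pair, 43 (47.3%, 37.3 to 57.4) were intronic and 6 (6.59%, 3.06 to 13.7) lay within 1 kb of a start. Of the 173 without one, 52 (30.1%, 23.7 to 37.3) were intronic and 24 (13.9%, 9.50 to 19.8) lay within 1 kb of a start. The intervals barely miss each other for introns and overlap near starts, and the difference was not tested.

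**Figure D1:**
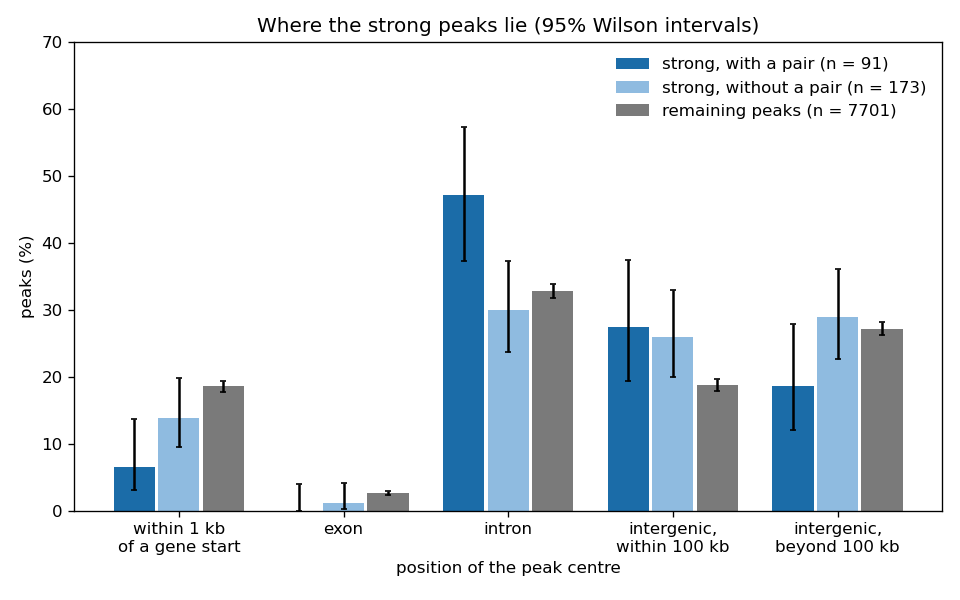
Position of peak centres relative to protein-coding gene models, as a percentage of the peaks of each kind: 91 strong peaks with a palindromic pair, 173 strong peaks without one and 7701 remaining peaks. Bars give the share and whiskers the 95% Wilson interval; the pair-bearing peaks are the most intronic, at 47.3%, and the least often within 1 kb of a start, at 6.59%.

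By chromosome, strong peaks were most numerous on chromosome 1 with 33 (12.5% of them, where the chromosome makes up 7.43% of the length) and chromosome 14 with 27 (10.2%, against 4.72%). Remaining peaks leaned the same way, with 11.8% on chromosome 1 and 8.06% on chromosome 14. Chromosome 17 held 2 strong peaks (0.758%) although it holds 3.54% of the remaining ones. The X chromosome, 6.28% of the length, held no strong peak and 48 remaining ones (0.623%), and the Y chromosome held none of either. A few strong peaks lay close together: 2 peaks upstream of Gpc5 were 509 bp apart and 2 in an intron of Rgs7 were 1680 bp apart.

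Palindromic pairs were several times as frequent in strong peaks as in the rest of the list. A pair with 0 or 1 base between its arms was present in 91 of 264 strong peaks (34.5%, 29.0 to 40.4) and in 313 of 7701 remaining peaks (4.06%, 3.65 to 4.53). None of the 528 flanking windows of the same width beside strong peaks held one, which allows a share of up to 0.722% by the Wilson interval. Over all 19236292 windows of the peak width in the assembly the share was 0.110%, and among RefSeq promoters (GRCm38, 300 bases each) 0.0914%. The exact octamer, in contrast, was present in 16 strong peaks (6.06%, 3.77 to 9.62), in 4.13% (3.71 to 4.6) of the remaining peaks, in 1.89% of the flanks, in 1.14% of all windows and in 1.74% of the promoters. The intervals of strong and remaining peaks thus overlap for the octamer and do not for the pair. With 1 mismatch allowed, octamers were found in 51.5% of strong peaks, 33.7% of remaining peaks and 16.3% of flanks. In 21 strong peaks (7.95%) all such octamers overlapped a pair. An octamer beside a SOX core, the arrangement known for Oct4 with Sox2, was found in 0 strong peaks and in 0.0519% of the remaining ones.

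The spacing between the arms was uneven. Pairs without a spacer were in 56 strong peaks (21.2%, against 2.69% of the remaining peaks and 0.0824% of all windows), and pairs with 1 base in 36 (13.6%, against 1.38% and 0.0282%). Pairs with 2 bases were in 25 (9.47%, against 3.22% and 0.126%), with 3 bases in 0 (against 0.208% of the remaining peaks), with 4 bases in 7 (2.65%, against 1.3%), with 5 in 5 (1.89%, against 0.454%) and with 6 in 22 (8.33%, against 3.05%). The strong peaks whose pairs all had 2 bases between the arms were 18 in number, with a median GC content of 32.3%, such as the Prkg2 peak shown further on. The median GC content was 45.1% in strong peaks with a pair at 0 or 1 base and 41.4% in those without. If 1 of the 10 fixed letters of the pair was allowed to change, 157 strong peaks (59.5%, 53.5 to 65.2) held a pair, against 15.2% of the remaining peaks, 2.46% of the flanks and 2.13% of all windows. This left 63 strong peaks (23.9%) with neither such a pair nor an octamer with up to 1 mismatch, against 59.9% of the remaining peaks.

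The share of peaks with a pair was higher the higher the score, over the whole list. It was 0.962% at scores from 7 to 10, 3.01% from 10 to 12, 4.77% from 12 to 14, 8.70% from 14 to 16 and 10.5% from 16 to 20. Within the strong peaks it was 25.2% (19 to 32.5) from 20 to 25, 44.6% (32.4 to 57.6) from 25 to 30, 48.4% (32.0 to 65.2) from 30 to 40 and 54.5% (34.7 to 73.1) at 40 and over. The intervals of the last 3 classes overlap widely. The octamer share stayed between 3.85% and 7.14% up to a score of 40, and none of the 22 peaks beyond it held an octamer (0%, 0 to 14.9). That interval includes the shares of the lower classes.

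**Figure D2:**
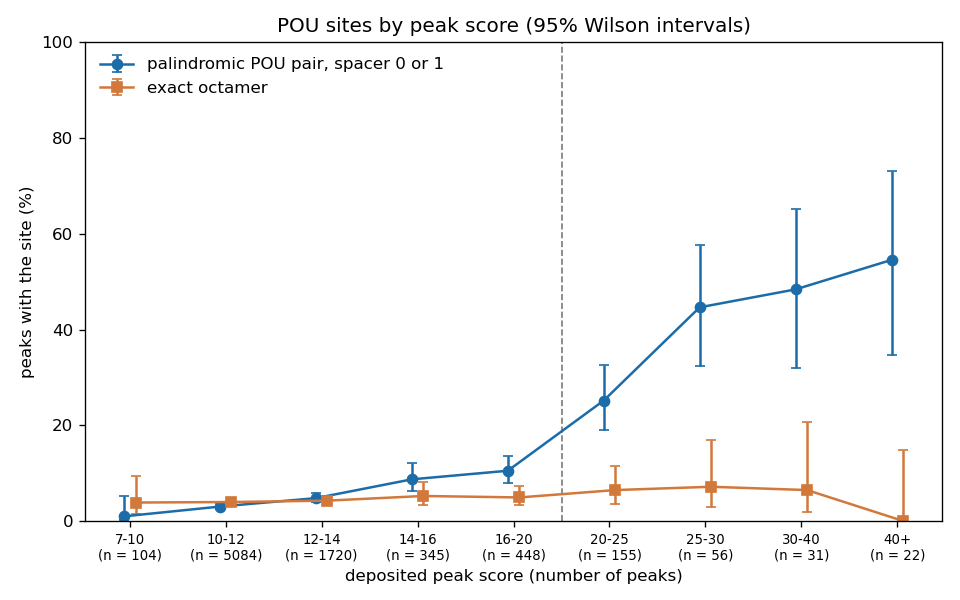
Percentage of peaks with a palindromic pair (0 or 1 base between its arms) and with an exact octamer, by class of deposited peak score, for all 7965 peaks. Whiskers are 95% Wilson intervals and the dashed line marks the score of 20; the pair share goes from 0.962% in the lowest class to 54.5% in the highest, while the octamer share stays at or below 7.14%.

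Where a pair was present it lay near the peak centre. The 103 pairs in strong peaks had a median distance of 9 bp from the centre, and 86 of them (83.5%) lay within 25 bp. The 16 octamers had a median distance of 31.5 bp, and 7 (43.8%) lay within 25 bp. Most pair-bearing peaks held 1 pair (82), while 7 held 2, 1 held 3 and 1 held 4.

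**Figure D3:**
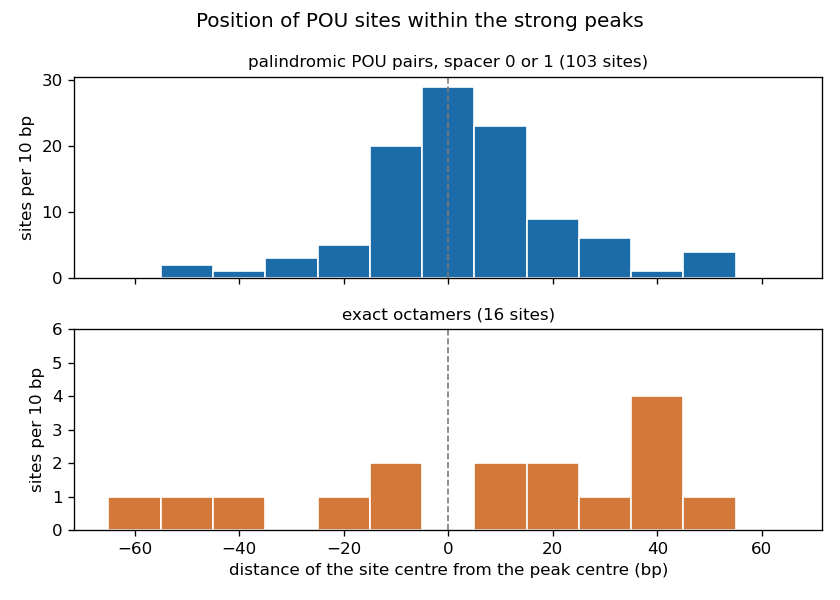
Distance of the site centre from the peak centre, in bp, for the 103 palindromic pairs (upper panel) and the 16 exact octamers (lower panel) of the strong peaks, as the number of sites per 10 bp. The pairs cluster at the centre, with a median distance of 9 bp, and the octamers are spread over the peak, with a median of 31.5 bp.

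The bases at the open position of the arms were uneven. Written so that each arm reads ATGNAT, pairs without a spacer were made of ATGAAT with ATGAAT in 25 sites, of ATGAAT with ATGCAT in 20 and of ATGCAT with ATGCAT in 13. Pairs with 1 base between the arms were made of ATGAAT with ATGCAT in 22 of 37 sites. The assembly holds 23787 pairs in all, of which 103 (0.433%) lay in strong peaks and 435 (1.83%) in any peak. For octamers these numbers were 234170, 16 (0.00683%) and 362 (0.155%).

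Which pairs of the assembly lay in a peak depended on the arms. Of the 960 pairs of ATGAAT with ATGAAT without a spacer, 79 (8.23%) lay in a peak and 25 (2.60%) in a strong one. Of the 801 pairs of ATGAAT with ATGCAT at 1 base, 76 (9.49%) lay in a peak and 22 (2.75%) in a strong one. The pair of ATGCAT with ATGCAT without a spacer had 51 of 1621 sites (3.15%) in a peak. The mixed pair of ATGAAT with ATGCAT was in a peak less often without a spacer, at 58 of 1469 sites (3.95%), than at 1 base, while the pair of ATGAAT with ATGAAT went the other way, with 23 of 617 (3.73%) at 1 base. Pairs with a G at the open position were nearly absent from strong peaks, with 1 site in all, and the pair of ATGTAT with ATGTAT had 20 of 4017 sites (0.498%) in a peak without a spacer and 0 of 761 at 1 base.

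Words of 8 bases were counted without any site in mind, and the first 4 by the number of strong peaks gave the same letters. The word CATGCATA was in 30.7% of strong peaks, 7.35% of remaining peaks and 1.14% of flanks. CATGAATA was in 26.5%, 5.62% and 0.758%, ATATGCAT in 23.9%, 6.61% and 0.189%, and ATATTCAT in 21.6%, 5.23% and 1.14%. The octamer ranked at place 60 among all words by the number of strong peaks that hold it.

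A minority of strong peaks lay in sequence that recurs in the assembly. In 25 of them (9.47%, 6.50 to 13.6) the median 24-base word of the peak occurred more than once, against 2.17% (1.87 to 2.52) of the remaining peaks. Among the 12 peaks of highest score there were 5 of these. They include a peak of score 92.4 in an exon of Lars2, a mitochondrial leucyl-tRNA synthetase gene, whose RNA ranked between place 75 and place 252 of 22558 genes in the 6 libraries. They also include a group of 5 strong peaks upstream of Gm15319 on chromosome 8, with scores up to 84.8. Of the 25 recurring peaks 2 held a pair at 0 or 1 base and 8 held pairs at 2 bases only. Among the 239 strong peaks of unique sequence, 89 (37.2%, 31.4 to 43.5) held a pair, and among the 17 of unique sequence at a score of 40 or more it was 70.6% (46.9 to 86.7). Unique here means only that the median 24-base word does not recur in the assembly. The Axin2 and Samd9l peaks, which read as ribosomal RNA gene fragments, count as unique and are in both groups. The part of mapping in these scores was not tested.

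The nearest protein-coding genes of the 264 peaks were 243 in number, and 143 genes of the FPKM table were the nearest gene of a strong peak within 100 kb. FPKM is a fragment number scaled to transcript length and library size. Of the 143, 109 had an FPKM of 1 or more somewhere, 34 did not and 2 were listed at 0 in all 6. A gene counted as changed if its log2(FPKM + 1) differed by at least 1 between the induced and the control library of a day and its FPKM was at least 1 in either. Pou3f1 itself checked the labels, with 312, 222 and 86.8 FPKM in the induced libraries at days 2, 4 and 6 and 64.3, 10.1 and 4.76 in control.

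Genes nearest to strong peaks were more often higher in induced cells than genes at large, on each day. At day 2, 25 of 99 expressed ones (25.3%, 17.7 to 34.6) were at least 2-fold higher, against 9.63% of all 12018 protein-coding genes, and 3 (3.03%) were lower, against 1.56%. At day 4, the day of the ChIP, 18 of 101 (17.8%, 11.6 to 26.4) were higher, against 5.93%, and 0 were lower, against 1.87%. At day 6, 11 of 104 (10.6%, 6.01 to 17.9) were higher, against 2.94%, and 1 (0.962%) was lower, against 1.8%. The median difference of log2(FPKM + 1), induced minus control, was 0.39, 0.24 and 0.14 on the 3 days, against 0.17, 0.10 and 0.05 over all genes. Genes nearest to a remaining peak within 100 kb, and not to a strong peak within 100 kb, took a middle place, with 14.7%, 10.1% and 4.55% higher. Scaling the libraries to a common median ratio moved the day 2 median of all genes to 0.03 and gave 22.2% higher at day 2 against 7.95% of all genes, and quantile normalisation gave 16.2% against 5.7%. In bulk RNA, fewer cells of a type and less RNA per cell cannot be told apart.

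No excess was seen at promoters. Of the genes with a strong peak within 1 kb of their start, 1 of 28 was higher at day 2 (3.57%, 0.633 to 17.7), 0 of 27 at day 4 and 0 of 27 at day 6, where the upper bound of the interval is 12.5%. The gene higher at day 2 was Wwtr1, the Hippo pathway coactivator TAZ, with a peak of score 31.6 centred 30 bp from its start and with 6.36, 13.9 and 11.6 FPKM in control and 29.9, 25.6 and 17.8 in induced cells, in the order of the days. Genes whose nearest strong peak was 1 to 10 kb away were higher in 5 of 15 cases at day 2, 4 of 17 at day 4 and 2 of 15 at day 6. At 10 to 100 kb the numbers were 19 of 56 (33.9%), 14 of 57 (24.6%) and 9 of 62 (14.5%), and beyond 100 kb 15 of 51 (29.4%), 19 of 52 (36.5%) and 10 of 51 (19.6%). For remaining peaks the shares at day 4 were 5.10% up to 1 kb, 13.3% at 1 to 10 kb, 14.2% at 10 to 100 kb and 20.1% beyond 100 kb, and at day 2 they were 9.50%, 19.4%, 18.6% and 22.8%. For both kinds of peak the class up to 1 kb had the lowest share on each day. In that class the share was higher for remaining than for strong peaks, and in the other classes it was lower.

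**Figure D4:**
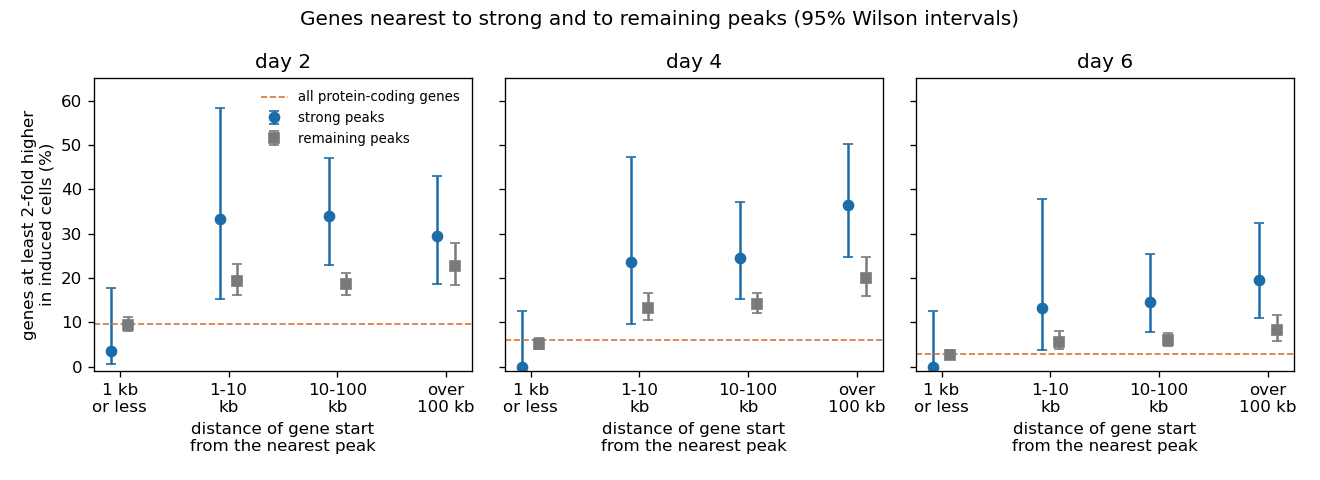
Percentage of expressed genes at least 2-fold higher in the induced than in the control library, by the distance of the gene start from its nearest strong peak (circles) or, for genes with no strong peak nearest, remaining peak (squares), at days 2, 4 and 6. Whiskers are 95% Wilson intervals and the dashed line is the share of all expressed protein-coding genes (9.63%, 5.93% and 2.94%); up to 1 kb both kinds lie at or under the line, and beyond 1 kb the circles lie above the squares with overlapping intervals in several classes.

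The shares of higher genes near peaks with and without a pair were not separated by their intervals. Of the genes nearest to a strong peak with a pair, 12 of 35 (34.3%, 20.8 to 50.9) were higher at day 2, 6 of 37 (16.2%, 7.65 to 31.1) at day 4 and 3 of 41 (7.32%) at day 6. Of those nearest to a strong peak without one, 13 of 64 (20.3%, 12.3 to 31.7), 12 of 64 (18.8%, with a lower bound of 11.1%) and 8 of 63 (12.7%) were higher. The intervals overlap on each day, and the order turns between day 2 and the later days. The median log2 difference was 0.76, 0.35 and 0.12 with a pair and 0.30, 0.19 and 0.14 without. The difference between these genes was not tested.

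Over the 3 days together, limma with day as a block called 3 of 13661 genes at an adjusted p under 0.05 (0.022%), and 0 of the 109 genes nearest to strong peaks were among them. Its lowest adjusted p for one of the 109 was 0.0746, for Prkg2. At an unadjusted p under 0.05, limma had 34 of the 109 (31.2%) higher, against 16.3% of all genes, and 2 (1.83%) lower, against 4.72%. The fit has 2 residual degrees of freedom. Its error is how far the difference between induced and control varies from day to day, since no culture was repeated. By fold alone, 3 of the 94 genes expressed on all days (3.19%) were at least 2-fold higher each day, against 1.18% of all genes, and 0 were lower each day, against 0.0794%.

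The 3 genes higher on every day were Prkg2, Sost and Kcnd2. Prkg2, a cGMP-dependent protein kinase, had 0.608, 0.171 and 0.320 FPKM in the control libraries of days 2, 4 and 6 and 8.65, 7.53 and 3.83 in the induced ones. All 3 induced values lie above all 3 control values, and log2(FPKM + 1) differed by 2.59, 2.86 and 1.87. In limma the mean difference was 2.44 (SE 0.24). The Prkg2 peak lies in an intron, 75672 bp downstream of the start, at a score of 22.8.
Prkg2 peak, chr5:99390632-99390764: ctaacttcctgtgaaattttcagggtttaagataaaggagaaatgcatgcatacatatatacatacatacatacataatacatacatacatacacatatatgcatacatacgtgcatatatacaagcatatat
Sost, which encodes the secreted Wnt antagonist sclerostin, was listed at 0, then had 0.0190 and 0.230 FPKM in control, and 14, 4.26 and 1.5 in induced cells. The induced level was highest at day 2, and the groups do not overlap. Its peak, at a score of 29.1, lies 32395 bp downstream of the start.
Sost peak, chr11:101795868-101796000: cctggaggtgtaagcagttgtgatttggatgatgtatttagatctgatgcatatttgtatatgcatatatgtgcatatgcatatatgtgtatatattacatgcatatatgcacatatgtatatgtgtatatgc
Kcnd2, a voltage-gated potassium channel of neurons, had 0.0215, 0.0242 and 0 FPKM in control and 1.26, 2.52 and 1.98 in induced cells. It was close to silent in every control library. Its peak, at a score of 21.5, is intronic, 37347 bp into the gene.
Kcnd2 peak, chr6:21202784-21202916: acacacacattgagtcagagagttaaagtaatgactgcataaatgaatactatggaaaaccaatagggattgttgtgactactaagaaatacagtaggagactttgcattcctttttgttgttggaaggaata
None of these 3 peaks holds a pair at 0 or 1 base or an exact octamer, so they carry no capitals.

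Among expressed genes nearest to a strong peak within 100 kb, further ones with the largest day 4 differences were Negr1, Ptgs2, Meis2, Cttnbp2 and Basp1. Negr1, a neuronal adhesion protein, had 0.0286, 0.0552 and 0.127 FPKM in control and 0.765, 4.01 and 2.90 in induced cells, lowest at day 2. Cttnbp2, a cortactin-binding protein, had 0.247, 0.749 and 2.80 in control and 1.66, 4.93 and 5.52 in induced cells, where the day 6 control lies above the day 2 induced library. Basp1, a membrane protein of growth cones, was the most abundant of them, with 66.9, 34.2 and 54.8 FPKM in control and 132, 118 and 91.6 in induced cells. Its induced values lie above all control values, and its intronic peak holds a pair at 1 base. Ptgs2, the inducible cyclooxygenase, had 1.01, 0.508 and 0.913 in control and 4.17, 5 and 0.379 in induced cells, so its direction turned at day 6. Whether these differences come with more neurons was not tested: the 3 neuronal markers Tubb3, Dcx and Mtap2 summed to 17.1, 5.33 and 12.2 FPKM in control and 60.3, 46.7 and 82.3 in induced cells, with 2, 3 and 3 of 3 at least 2-fold higher.

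Other cell types also moved with the arm. The 5 fibroblast markers, which feeder cells would carry, summed to 14.8, 9.50 and 36.3 FPKM in control and to 104, 37.4 and 21.7 in induced cells, with 2, 2 and 0 of 5 at least 2-fold higher and 0, 1 and 2 at least 2-fold lower, and none was at 0. Most of the day 2 sum was Col1a2, at 1.76 in control and 80.2 in induced cells. The 4 visceral endoderm markers summed to 12.5, 84.6 and 146 in control and to 3.45, 3.99 and 10.7 in induced cells, and the 3 cardiac ones to 1.43, 12.9 and 143 against 1.33, 2.28 and 6.05. The 3 epiblast markers Fgf5, Otx2 and Dnmt3b summed to 431, 431 and 169 in control and to 117, 153 and 103 in induced cells, with 2, 3 and 0 of 3 at least 2-fold lower. The 4 pluripotent cell markers Pou5f1, Sox2, Nanog and Zfp42 summed to 1180, 651 and 201 in control and to 663, 713 and 249 in induced cells. Of them, 0, 1 and 1 were at least 2-fold higher and 2, 0 and 0 at least 2-fold lower. Pou5f1, the Oct4 gene, had 890, 495 and 136 FPKM in control and 436, 445 and 138 in induced cells. Zfp42 had 104, 23.8 and 11.6 in control and 106, 88.1 and 37.8 in induced cells. The 4 neural progenitor markers summed to 4.58, 14.1 and 13.1 in control and 9.68, 19.5 and 27.2 in induced cells. Of them, 0, 3 and 1 were at least 2-fold higher. At day 4 Sox1, Pax6 and Zic1 were higher in induced cells, while Nes was lower, with 13.8 in control and 9.20 in induced cells. The 3 mesoderm markers summed to 1.12, 216 and 56.5 in control and 1.39, 138 and 44.7 in induced cells. Of these, 0, 2 and 1 were at least 2-fold lower. The part of these cell types in the counts of genes near strong peaks was not tested.

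Sox2 and Meis2, factors of neural progenitors, followed Axin2 in peak score among the listed developmental genes. Meis2, a homeodomain factor, had 0.896, 2.16 and 13.6 FPKM in control and 6.69, 11.2 and 14.9 in induced cells. The induced library was higher at days 2 and 4, by 2.02 and 1.94 on the log2 scale, and nearly level at day 6, by 0.12. Its peak, in an intron 85514 bp downstream of the start and at a score of 32.9, holds a pair of ATGAAT sites without a spacer near its centre. Sox2, a SOX factor of pluripotent and neural cells, had 135, 35.5 and 32.8 FPKM in control and 66.7, 65.9 and 37.8 in induced cells. It was lower in induced cells at day 2, by -1.01 on the log2 scale, and higher by 0.88 at day 4, just under the 2-fold line. Its peak, 3605 bp upstream of the start at a score of 38.0, holds 2 octamers with 1 mismatch and no pair. Both peaks are printed because of their genes, chosen after their values were seen.
Meis2 peak, chr2:115805995-115806127: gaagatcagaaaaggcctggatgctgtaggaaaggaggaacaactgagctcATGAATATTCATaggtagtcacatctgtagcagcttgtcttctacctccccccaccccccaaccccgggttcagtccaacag
Sox2 peak, chr3:34545256-34545388: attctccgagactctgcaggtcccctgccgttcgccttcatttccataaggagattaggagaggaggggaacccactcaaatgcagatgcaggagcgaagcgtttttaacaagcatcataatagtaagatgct

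**Figure D5:**
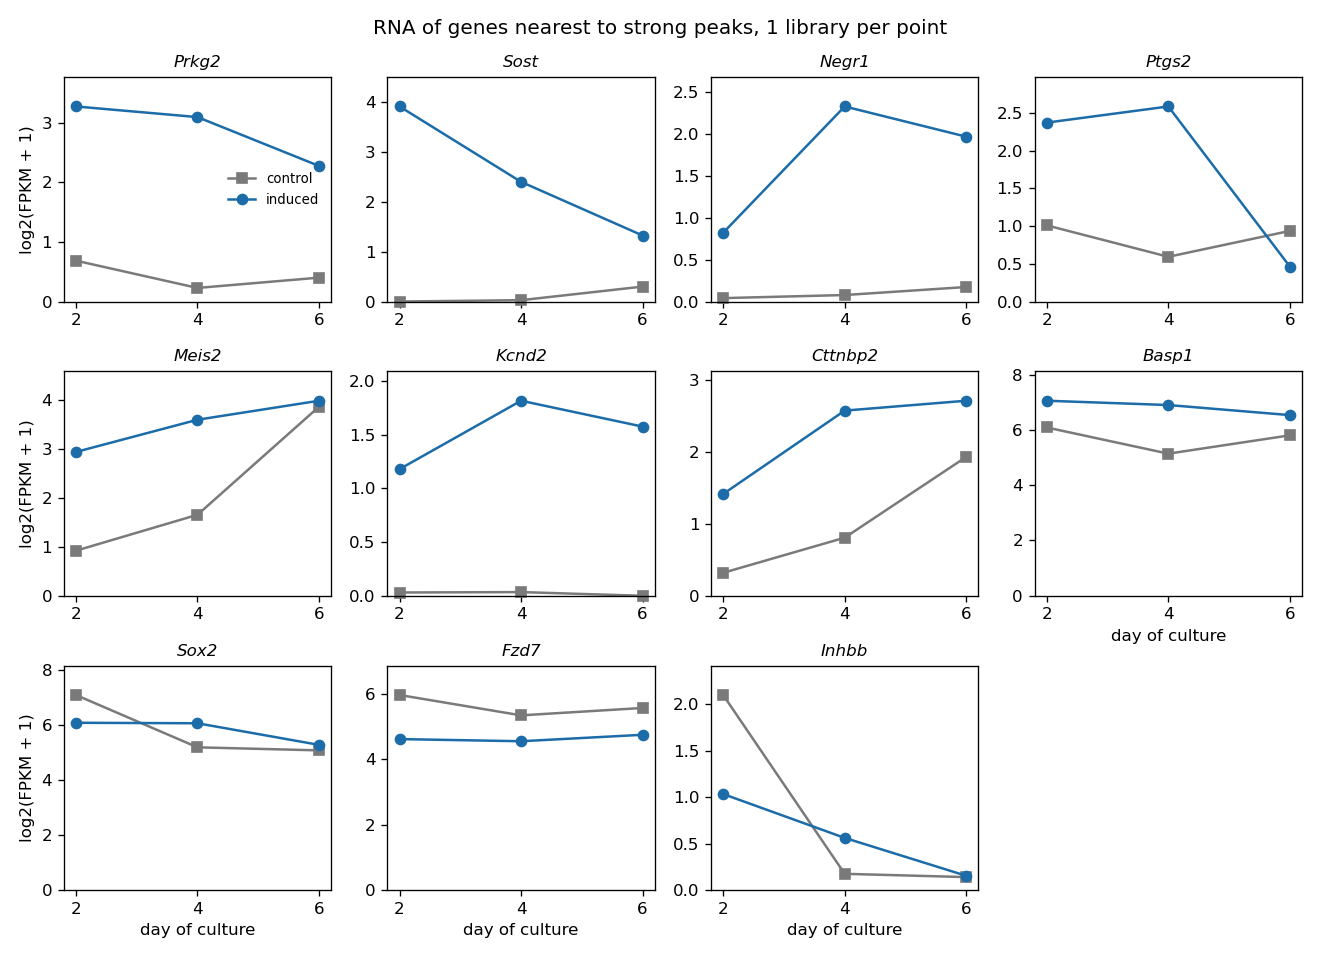
log2(FPKM + 1) in control (squares) and induced (circles) libraries at days 2, 4 and 6, for expressed genes nearest to a strong peak within 100 kb. Of these, 8 had the largest day 4 differences, from Prkg2 to Basp1, and 3 were at least 2-fold lower at day 2, Sox2, Fzd7 and Inhbb. Each point is 1 library, so no error is drawn; Prkg2, Sost and Kcnd2 stay apart on all days, by at least 1.02 on this scale, while Meis2 converges at day 6.

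Of 481 genes in the 12 lists for signalling, lineages and gene families, 11 (2.29%) had a strong peak nearest within 100 kb, against 0.707% of the table's 20239 protein-coding genes. The lists for pluripotency, endoderm, mesoderm and heart, posterior and Hox genes, and chromatin had 0 such genes each. Sox2, also a gene of pluripotent cells, was counted in the neural progenitor list only. Wnt signalling had Fzd7 and Axin2. Fzd7, a Wnt receptor, had 61.0, 39.3 and 46.1 FPKM in control and 23.4, 22.3 and 25.7 in induced cells, so all 3 induced values lie below all control values. It was at least 2-fold lower at day 2, by -1.35 on the log2 scale, and by -0.79 and -0.82 on the later days, with an adjusted p of 0.0963 in limma. Its peak, 44044 bp upstream, holds a pair. Axin2, a negative regulator and target of Wnt signalling, had 2.63, 10.5 and 7.10 in control and 4.09, 13.6 and 14.5 in induced cells, with log2(FPKM + 1) differing by 0.49, 0.34 and 0.93. The peak that is nearest to it is the ribosomal-like one of score 145.6. Inhbb, the activin beta B subunit, had 3.29 FPKM in the control and 1.05 in the induced library of day 2, and was under 1 afterwards.

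The POU genes near strong peaks were Pou6f1 and Pou2f1. Pou6f1 had 0.590, 2.93 and 1.25 FPKM in control and 7.62, 6.79 and 5.80 in induced cells, with differences of 2.44, 0.99 and 1.59 and no overlap between the arms. Its peak, 5326 bp upstream at a score of 21.5, holds a pair at 1 base. Pou2f1, which encodes Oct1, has a peak 48 bp from its start and had 13.4, 10.2 and 9.24 in control and 19.8, 11.6 and 9.38 in induced cells, under 2-fold throughout. Eya4, a phosphatase and coactivator of placodes, had 0.0638, 0.254 and 2.97 against 1.88, 1.49 and 1.98. Pcdh9, a protocadherin with 2 strong intronic peaks, had 0.0772, 0.101 and 0.130 against 1.57, 1.14 and 1.77, and Chl1, a neural adhesion gene, stayed under 1 FPKM. Jag2, a Notch ligand with a peak 353 bp upstream, had 9.39, 6.39 and 3.04 against 8.31, 5.62 and 3.12, nearly equal on each day.

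At the other end of the day 4 ranking the differences were small. After Fzd7 came Tjp3, a tight junction protein, with 7.54 FPKM in control and 4.15 in induced cells, and Pard6b, a cell polarity protein, with 14.7 and 8.89. Fem1b, Efhd2, Trim67, Prr5 and Efcab10 followed with differences from -0.65 to -0.42. None of the 8 reached 2-fold at day 4, and each of them other than Fzd7 and Fem1b was higher in the induced library on another day. Trim67 was at least 2-fold higher at day 6, with 0.279 against 1.75 FPKM.

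Of the 12 nearest genes of the 12 highest peaks, Gm15319 and Filip1l were under 1 FPKM in both arms at day 2. Of the other 10, Clip2, a microtubule linker, and Fam38b, a Piezo channel gene, were at least 2-fold higher at day 2, where 9.63% of all genes were, and none was at day 4. Clip2 had 2.26, 4.41 and 7.29 FPKM in control and 5.77, 7.58 and 9.67 in induced cells. Klf12, a Krüppel-like repressor whose start is 205501 bp from its peak, had 2.15, 3.15 and 5.21 against 5.11, 6.83 and 7.62. Its log2(FPKM + 1) differed by 0.96 and 0.92 at days 2 and 4, just under the line. Cdk8, a kinase of the Mediator complex, Kpna1, an importin, and Gse1 were abundant and level: Cdk8 had 34.5, 36.3 and 37.9 in control and 27.8, 30.5 and 35.5 in induced cells. Gm15319, nearest to 5 strong peaks, had at most 0.0636 FPKM, and Gpc5, nearest to 4, at most 0.407.

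Further genes with large differences had their nearest strong peak beyond 100 kb, where the nearest gene is a weaker guess. Named after their values were seen, Rgs7, Pde1a, Epha3, Dach1, Ptprd and Tshz3 were each at least 2-fold higher on all 3 days. They come from 80 genes at that distance, of which 51, 52 and 51 were expressed at days 2, 4 and 6. Of all genes expressed on all days, 1.18% were higher on all 3. Rgs7, a regulator of G protein signalling in neurons, had 0.0465, 0.260 and 0.123 FPKM in control and 8.46, 4.85 and 2.32 in induced cells, with 2 strong intronic peaks. Pde1a, a cyclic nucleotide phosphodiesterase, had 0.0577, 0.0728 and 0.107 against 2.88, 9.06 and 4.08, highest at day 4. Ptprd, a receptor phosphatase of synapses, had 0.135, 0.312 and 1.31 against 5.89, 7.29 and 5.17, with an intronic peak 928101 bp into the gene that holds an exact octamer. Epha3, an ephrin receptor, had 0.0602, 0.122 and 0.107 against 3.67, 3.05 and 3.76, but its peak lies in recurring sequence and holds pairs at 2 bases only.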

How the data were processed

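The samples were 6 RNA-seq libraries (control and induced, days 2, 4 and 6), 1 Oct6 ChIP library and 1 input library. The tools that the submitters' processing notes name are HOMER, Cuffdiff, Cufflinks 1.3.0 and TopHat 1.4.1, and the build is mm9. The authors deposited FPKM values in 1 table of 22558 genes, and 1 list of peaks, each with a position and a score. The deposited peak score was used only to choose, rank and describe peaks, and neither its calculation nor the treatment of reads with several matching places is given in the sources used. The number of reads per library is not in the files, so the depth behind an FPKM is unknown here.

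Peaks were all 133 bp wide. The 14 peaks on unplaced contigs were left out. Sequence and gene models came from the NCBIM37 assembly, the one behind mm9, with GENCODE vM1 annotation. Each peak centre was given the nearest start of a protein-coding gene, and 91.1% of 22367 such genes matched a symbol of the table, older symbols through RefSeq synonyms. Flanks were 133 bp windows on both sides, with their far end 500 bp from the peak. A peak was called recurring where the median number of assembly copies of its 24-base words was above 1. Shares carry 95% Wilson intervals.

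Expression was compared as log2(FPKM + 1), with a gene counted as changed at 2-fold or more if at least 1 of both libraries had an FPKM of 1. This scale understates the change of weakly expressed genes. R 4.3.3 with limma 3.58.1 fitted arm and day, with a mean-variance trend in eBayes and Benjamini-Hochberg adjustment, over all genes with an FPKM of 1 in any library. The marker Map2 was read under its older symbol, Mtap2. Other software was pysam 0.24.0, matplotlib 3.10.9, scipy 1.17.1, pandas 2.3.3, numpy 2.4.6 and Python 3.11.15, and the steps were tested on simulated data. Sequences of RefSeq promoters are those of GRCm38.

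Genes were named by a rule: the nearest genes of the 12 highest peaks, genes nearest to 3 or more strong peaks, the 8 highest and 8 lowest day 4 differences, genes changed on all 3 days, members of the 12 lists, and Pou3f1. A gene outside it is named with a statement of that, or as the only one in its count. The peaks, the lists and the rule were chosen with earlier results of these data known. Alternatives to the score threshold, distance, scaling, pseudocount, FPKM minimum and site definition were tried.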

Additional observations from a re-analysis of the deposited data

Results flagged for a closer look

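The list holds 3 peaks of a score of 20 or more outside the comparisons, because they lie on unplaced contigs. Of these, 2 are on the random contig of chromosome 4, at scores of 30.4 and 25.3, and 1 is on that of chromosome 8, at 24.1. Their sequence, position and nearest genes were not analysed here.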

How the results depend on the processing

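Of 127 alternative values, 27 were classed as moved and 100 were not, and none changed sign. The class of unmoved values was broad. It included the share higher at day 4, 17.8%, becoming 26.7% with a pseudocount of 0.1 and 12.6% without an FPKM minimum. Pair spacers beyond 0, recurring sequence and the restriction to pairs were chosen after seeing the data. The share of peaks with an octamer was 51.5% with 1 mismatch. The pair share was 15.9% at a score minimum of 15, 50.9% at 30, 21.2% with spacer 0 only and 41.3% with spacers 0 to 2. Within 10 kb, genes higher made up 14% (6.56 to 27.3), 9.09% (3.59 to 21.2) and 4.76% (1.32 to 15.8) at days 2, 4 and 6. Over all genes the shares were 9.63%, 5.93% and 2.94%, each inside its interval. The day 2 median within 10 kb was 0.22, against 0.17 over all genes, and 2.38% were lower at day 6, against 1.8%. After quantile normalisation 16.2% were higher at day 2, against 5.7% of all genes, and the medians were 0.18 at day 2 and 0.14 at day 4; median ratio scaling gave 0.15 at day 4. Without an FPKM minimum the day 2 median was 0.21. At a score minimum of 30, 9.09% of 22 genes were higher at day 4 and 0 of 24 at day 6. Over all genes it was 5.93% and 2.94%. At this minimum 4.55% were lower at day 2 and 0 at day 6. At 15, 1.42% were lower at day 2 and 1.17% at day 4. At any distance 2.0% were lower at day 2. With a pseudocount of 0.1, 2.88% were lower at day 6. With pair-bearing peaks only, 5.71% were lower at day 2 and 2.44% at day 6, and the day 2 median was 0.76. These changes of a few lower genes rest on at most 6 genes each. limma called 0 genes near strong peaks in each alternative, and leaving out day 4 took those at an unadjusted p under 0.05 from 36 to 22. The causes were not tested. The labels give no replicate numbers to pair by, and limma was paired by day.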
